A study of Mus musculus with 8 samples.

Results

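The genes described here are the platelet-derived growth factor (PDGF) ligands Pdgfa, Pdgfb and Pdgfc, the PDGF receptors Pdgfra and Pdgfrb, the receptor-like gene Pdgfrl, the fibroblast growth factor (FGF) ligands Fgf2 and Fgf7, and the FGF receptors Fgfr1 and Fgfr2. They were chosen by gene symbol, and every array probe annotated to these 10 genes was taken, which gave 15 of the 25669 probes and 10 of the 16582 named genes on the array. The cells were primary vascular smooth muscle cells (VSMC), taken from male C57Bl6/J mice at 8 weeks of age. All cells had been infected with a lentivirus and kept in puromycin for 2 days, and RNA was taken at day 5. The virus carried either a short hairpin RNA against Uhrf1 (shUHRF1) or a scrambled hairpin (shSCR). Each group held 2 RNA samples, and each RNA was hybridised to 2 Illumina bead arrays. The labels name neither the vessel nor the hairpin sequences, and they leave unstated whether each RNA is a culture or an animal of its own. A p-value here therefore covers the spread of these RNA samples alone, possibly a technical one. It is likewise unstated whether both shUHRF1 samples received the same hairpin.

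PDGF chains form dimers that bring receptor tyrosine kinases together at the cell surface. PDGF-A chains act through PDGF receptor alpha, the product of Pdgfra, while PDGF-B chains bind both receptors and are the classical driver of VSMC growth and migration through PDGF receptor beta. FGF2 binds FGF receptors together with heparan sulfate chains, and FGF7, also called keratinocyte growth factor, is made by mesenchymal cells and acts on epithelial forms of FGF receptor 2. In cultured VSMC, PDGF-BB lowers contractile genes and favours the growing, migratory state. Uhrf1 encodes a protein that binds hemimethylated CpG sites and brings in the maintenance methyltransferase Dnmt1.

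Since Uhrf1 acts at CpG dinucleotides, the bases just upstream of the transcription start are shown for 3 detected members from the RefSeq promoter table of build GRCm38.p6. The table held 7 entries for 6 members, Pdgfa, Pdgfc, Pdgfra, Fgf2, Fgf7 and Fgfr2. Each line gives 250 bases before the start, 5′ to 3′ on the gene's strand, with every CpG in capitals. The Pdgfa window lies at chr5:138994945-138995194 on the minus strand, the Pdgfra window at chr5:75152001-75152250 on the plus strand, and the Fgf7 window at chr2:126034408-126034657 on the plus strand.
Pdgfa: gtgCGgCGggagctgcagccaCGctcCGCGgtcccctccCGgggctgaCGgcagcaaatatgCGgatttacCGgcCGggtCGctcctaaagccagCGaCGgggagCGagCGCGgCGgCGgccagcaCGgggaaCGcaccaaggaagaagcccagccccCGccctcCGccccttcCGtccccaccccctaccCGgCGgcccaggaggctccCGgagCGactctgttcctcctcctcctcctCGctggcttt
Pdgfra: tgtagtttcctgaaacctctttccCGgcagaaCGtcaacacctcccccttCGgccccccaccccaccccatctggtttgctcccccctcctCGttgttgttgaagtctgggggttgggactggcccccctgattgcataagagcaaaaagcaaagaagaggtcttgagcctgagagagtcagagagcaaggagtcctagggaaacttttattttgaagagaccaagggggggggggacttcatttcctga
Fgf7: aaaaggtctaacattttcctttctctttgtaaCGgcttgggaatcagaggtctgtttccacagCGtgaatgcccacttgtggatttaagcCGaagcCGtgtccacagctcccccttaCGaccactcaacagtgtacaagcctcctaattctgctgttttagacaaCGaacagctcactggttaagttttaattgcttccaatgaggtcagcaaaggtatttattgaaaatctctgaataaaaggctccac

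The Pdgfa window held 28 CpG sites, more than 92.4% of the 32851 promoter windows in the table, whose median was 6. A different Pdgfa start, not printed, had 19 sites. The windows of Pdgfra and Fgf7 were poor in CpG by comparison, with 4 and 6 sites. Of the members that were not tested, Fgf2 had 20 sites, Pdgfc had 3 and Fgfr2 had 2. The letters GGGCGG, searched on both strands, occurred in both Pdgfa windows and in the Fgf2 window, and in 32.7% of all windows. The letters GCGNGGGCG, which can overlap GGGCGG, occurred among members in the Fgf2 window, and in 4.7% of all windows. A CArG box, the motif of serum response factor, was found among members in the Pdgfc window and in 1.47% of all windows, while neither TATAAA (12.4% of all windows) nor TGANTCA (6.75%) was found in a member's window. Methylation was not measured in these samples, so the sequences are a description of the windows.

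The targeted gene was lower in both labelled knockdown samples. The detected Uhrf1 probe gave a normalized log2 signal of 11.51, 11.53, 11.45 and 11.62 on the shSCR arrays and of 9.40, 8.73, 8.39 and 8.58 on the shUHRF1 arrays, a 6.74-fold difference (log2 difference -2.75, SE 0.23, limma adjusted p = 0.167). The highest shUHRF1 array was below the lowest shSCR array, although the difference did not pass the adjusted threshold. Of 11 smooth muscle markers with a probe, 4 were tested, Acta2, Tagln, Smtn and Tpm2, while 5, Myh11, Cnn1, Mylk, Synpo2 and Myocd, were not detected on any array. Tagln, a contractile marker, stood at 4.91 and 5.28 in shSCR and at 6.46 and 6.27 in shUHRF1. Every shUHRF1 array was above every shSCR array (difference 1.27, SE 0.20, limma adjusted p = 0.287). Its shSCR signal was near the lowest detected signal of those arrays, 4.81 to 4.89. The brightest Acta2 probe differed by 0.57 (SE 0.30), with overlapping arrays, and the other tested Acta2 probes by 1.25, 1.13 and 0.76. Smtn differed by 0.12 (SE 0.18) and Tpm2 by 0.25 (SE 0.22), both with overlapping arrays. The summed linear signal of the 4 tested smooth muscle genes, most of it from Acta2, ranged from 12070 to 22536 on the shSCR arrays and from 18104 to 31129 on the shUHRF1 arrays. Of the endothelial markers 3 of 10 with a probe were tested, with Cdh5, Tie1, Vwf and Emcn undetected. The summed signal of these 3 genes ranged from 445.3 to 537 on the shSCR arrays and from 314 to 419.5 on the shUHRF1 arrays, without overlap. Most of it came from Egfl7, so the sum largely repeats the result of that gene. Egfl7 differed by -0.52 (SE 0.17, limma adjusted p = 0.294), with every shUHRF1 array below every shSCR array. Kdr differed by -0.41 (SE 0.19) and Esam by 0.34 (SE 0.28). Kdr was detected on 4 shSCR and 2 shUHRF1 arrays, and Esam on 3 and 4. Each was tested only because all 4 arrays of the group where it was higher detected it. The differences of Kdr and Esam are thus partly set by that filter. Of the macrophage and leukocyte markers 2 of 9 were tested, with summed signals of 379.8 to 534 in shSCR and 317 to 543 in shUHRF1. The part of these markers in the members' results was not tested. A single array detected 45.1% to 48.2% of its probes. Repeat arrays of an RNA differed more in the shUHRF1 samples, with a median absolute difference over tested probes of 0.28 and 0.25 on the log2 scale, than in the shSCR samples, with 0.15 and 0.15.

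Only 5 of the 10 genes gave a usable signal. Pdgfa, Pdgfra, Pdgfrb and Fgf7 were detected (detection p under 0.05) on all 8 arrays, each on its only probe, and Fgfr1 on 7 arrays by 1 of its probes. A probe was tested if it was detected on all 4 arrays of at least 1 group, and these 5 probes passed that filter. Fgfr1 passed it through the shUHRF1 arrays, where its signal was higher, since 1 shSCR array did not detect it, and its difference is partly set by the filter. The other 10 probes, which include every probe of Pdgfb, Pdgfc, Pdgfrl, Fgf2 and Fgfr2, were detected on 0 to 3 arrays. Fewer cells that express a gene and less RNA per cell cannot be told apart in these bulk samples.

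**Figure D1:**
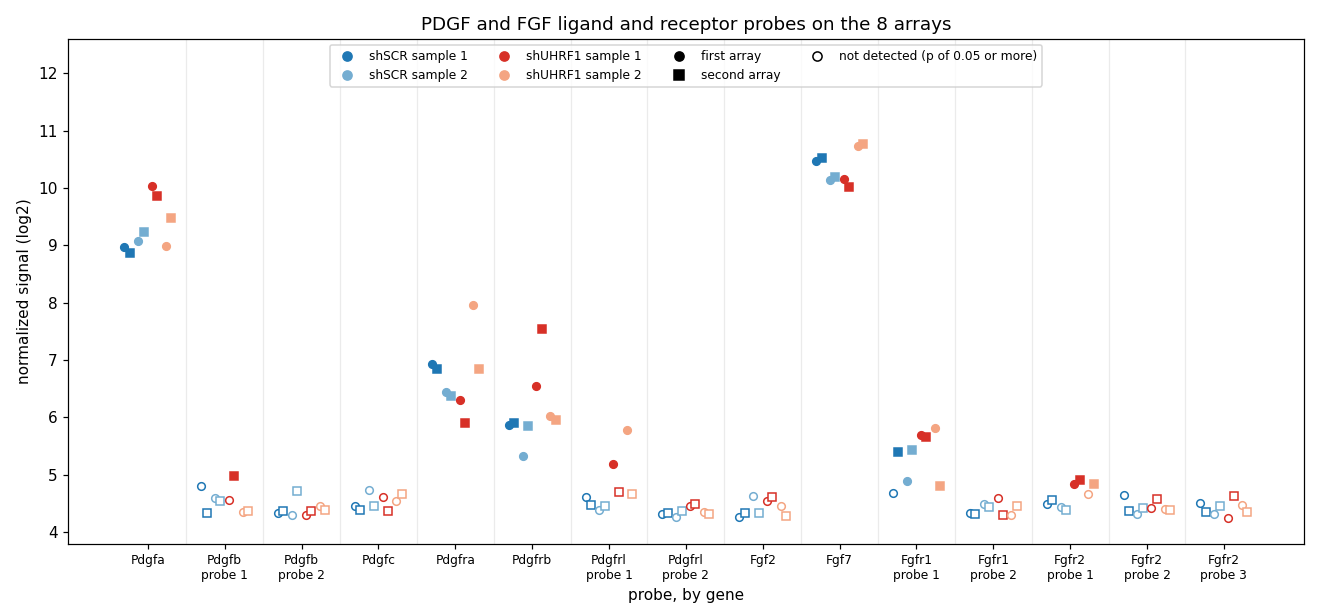
Normalized log2 signal (vertical axis) of the 15 probes of the 10 genes (horizontal axis, the probes of a gene in order of mean signal) on each of the 8 arrays, coloured by RNA sample, with circles for first and squares for second arrays and open symbols where the probe was not detected. Pdgfa, Pdgfra, Pdgfrb and Fgf7 have 8 filled symbols each and probe 1 of Fgfr1 has 7, and the other 10 probes have between 0 and 3.

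None of the 5 tested probes passed the adjusted threshold in shUHRF1 against shSCR (0 of 5 by limma with Benjamini-Hochberg adjustment over 10880 probes, where 0% of all tested probes passed), and 0 of 5 had an unadjusted p under 0.05, where 14.5% of all tested probes did. The fitted differences lay between 0.09 for Fgf7 and 0.78 for Pdgfrb on the log2 scale. In a fit of the 8 single arrays, with RNA sample entered as random block, 0 of the 5 passed either, with an unadjusted limma p of 0.0356 for Pdgfa and 0.0467 for Pdgfrb and adjusted p of 0.218 and 0.240. When array number (first or second) was added to that fit as a further block, the unadjusted limma p was 0.0495 for Pdgfrb, with an adjusted p of 0.268, and 0.0509 for Pdgfa. In 1 of the 5 probes, Pdgfrb, the arrays of the groups did not overlap, against 16.2% of all tested probes in either direction. An exact permutation test on 2 against 2 samples could not give a two-sided p below 0.333.

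Pdgfa, which encodes the A chain of PDGF, was the only PDGF ligand with a tested probe. Its log2 signal was 8.98 and 8.86 on the arrays of shSCR sample 1, 9.08 and 9.24 in shSCR sample 2, 10.04 and 9.87 in shUHRF1 sample 1, and 8.99 and 9.48 in shUHRF1 sample 2. Sample 1 of shUHRF1 stood apart from the rest, and sample 2 overlapped the controls, since its first array lay below both arrays of shSCR sample 2. The mean difference was 0.56 (SE 0.27, n = 2 RNA samples per group, 95% interval -0.09 to 1.21, limma adjusted p = 0.379), or 1.47-fold. Taken sample by sample against the shSCR mean, the difference was 0.92 in shUHRF1 sample 1 and 0.20 in sample 2, while the controls differed from each other by 0.24. The size therefore rested on shUHRF1 sample 1, without which it was 0.20.

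Pdgfrb, the receptor through which PDGF-B acts on smooth muscle cells and pericytes, had the largest difference of the tested members. Its log2 signal was 5.86 and 5.90 in shSCR sample 1, 5.33 and 5.84 in shSCR sample 2, 6.54 and 7.54 in shUHRF1 sample 1, and 6.02 and 5.95 in shUHRF1 sample 2. Every shUHRF1 array was above every shSCR array, but the gap between the lowest shUHRF1 array and the highest shSCR array was small in sample 2. The mean difference was 0.78 (SE 0.35, n = 2 RNA samples per group, 95% interval -0.07 to 1.63, limma adjusted p = 0.362), or 1.72-fold, with 1.31 in sample 1 and 0.25 in sample 2. The 2 arrays of shUHRF1 sample 1 alone differed by 0.99, which exceeds the mean difference between the groups. Without shUHRF1 sample 1 the difference was 0.25, and in the authors' processed values it was 0.18.

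Markers of pericytes, mural cells that also express Pdgfrb, were examined beside it. Besides Pdgfrb, 2 of 5 pericyte markers with a probe were tested, Cspg4 and Rgs5. The proteoglycan gene Cspg4 stood at 6.56 and 6.71 in the shSCR samples and at 7.56 and 6.06 in the shUHRF1 samples, so it was highest in shUHRF1 sample 1, as Pdgfrb was. The signalling regulator Rgs5 stood at 6.47 and 5.46 in shSCR and at 6.04 and 6.67 in shUHRF1, and was highest in sample 2. The summed linear signal of both genes ranged from 121.3 to 194 on the shSCR arrays, from 229 to 297.4 in shUHRF1 sample 1 and from 155.8 to 187.7 in sample 2. Their part in the Pdgfrb result was not tested.

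Pdgfra, the receptor for PDGF-A and a common marker of fibroblasts, went in opposite directions in the shUHRF1 samples. Its log2 signal was 6.92 and 6.84 in shSCR sample 1, 6.45 and 6.38 in shSCR sample 2, 6.30 and 5.89 in shUHRF1 sample 1, and 7.96 and 6.85 in shUHRF1 sample 2. The lowest and the highest of the 8 arrays both belonged to shUHRF1, and the 2 shSCR samples lay between them. The 2 arrays of shUHRF1 sample 2 differed by 1.11, and the second lay within the range of shSCR sample 1. Against the shSCR mean, shUHRF1 sample 1 was at -0.55 and sample 2 at 0.76, which gave a mean difference of 0.10 (SE 0.42, n = 2 RNA samples per group, 95% interval -0.93 to 1.13, limma adjusted p = 0.924). The interval spans both signs, and the difference was negative without shUHRF1 sample 2 (-0.55), without shSCR sample 2 (-0.13) and from the second arrays alone (-0.24).

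Other fibroblast markers were set beside Pdgfra. Of 9 further markers with a probe, 4 were tested. Dpt, an extracellular matrix protein gene of fibroblasts, stood at 5.59 and 5.17 in shSCR and at 4.80 and 6.81 in shUHRF1 samples 1 and 2, and Cd34, a surface marker of adventitial progenitors, at 6.04 and 5.54 against 5.09 and 6.02. Both were lower in shUHRF1 sample 1 than in sample 2, as was Pdgfra. The adventitial marker Pi16 stood at 7.20 and 6.51 in shSCR and at 7.72 and 7.77 in shUHRF1. Scara5, a scavenger receptor gene of adventitial fibroblasts, stood at 5.54 and 4.45 against 6.09 and 6.17. Pi16 and Scara5 thus did not separate the shUHRF1 samples as Pdgfra did. Scara5 was detected on 2 shSCR and 4 shUHRF1 arrays, and Cd34 on 4 and 3. Each passed the filter through the group where its mean was higher, so its group difference is partly set by the filter. The summed linear signal of these 4 markers ranged from 192.3 to 331.3 on the shSCR arrays, from 250.2 to 480.1 in shUHRF1 sample 1 and from 270.5 to 885.8 in sample 2. Their part in the Pdgfra result was not tested.

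Among the 5 tested probes, that of Fgf7 had the steadiest readings between arrays of an RNA. Its log2 signal was 10.47 and 10.52 in shSCR sample 1, 10.13 and 10.19 in shSCR sample 2, 10.16 and 10.02 in shUHRF1 sample 1, and 10.73 and 10.77 in shUHRF1 sample 2. The arrays of an RNA differed by at most 0.14, whereas the RNA samples differed within each group, by 0.34 in shSCR and by 0.66 in shUHRF1. The samples came in the same order as for Pdgfra, with shUHRF1 sample 2 highest, then shSCR sample 1, shSCR sample 2 and shUHRF1 sample 1, the last 2 of which overlapped for Fgf7. The mean difference between the groups was 0.09 (SE 0.26, n = 2 RNA samples per group, 95% interval -0.55 to 0.73, limma adjusted p = 0.889), smaller than the difference within either group. Its sign turned without shUHRF1 sample 2 (-0.24) and without shSCR sample 2 (-0.08).

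Fgfr1, the only FGF receptor among the tested members, was dim. Its brighter probe gave 4.68 and 5.39 in shSCR sample 1, 4.89 and 5.43 in shSCR sample 2, 5.69 and 5.66 in shUHRF1 sample 1, and 5.82 and 4.80 in shUHRF1 sample 2, with detection p between 0.00125 and 0.100. The groups overlapped because of the second array of shUHRF1 sample 2, and the arrays of a single RNA differed by up to 1.02. The mean difference was 0.39 (SE 0.19, n = 2 RNA samples per group, 95% interval -0.07 to 0.86, limma adjusted p = 0.384), with 0.58 in sample 1 and 0.21 in sample 2. From the first arrays alone it was 0.97, and from the second arrays alone -0.18. It was 0.05 in the authors' processed values and 0.13 with quantile normalization and no background correction. A different Fgfr1 probe was not detected on any array, with log2 signals of 4.29 to 4.60.

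**Figure D2:**
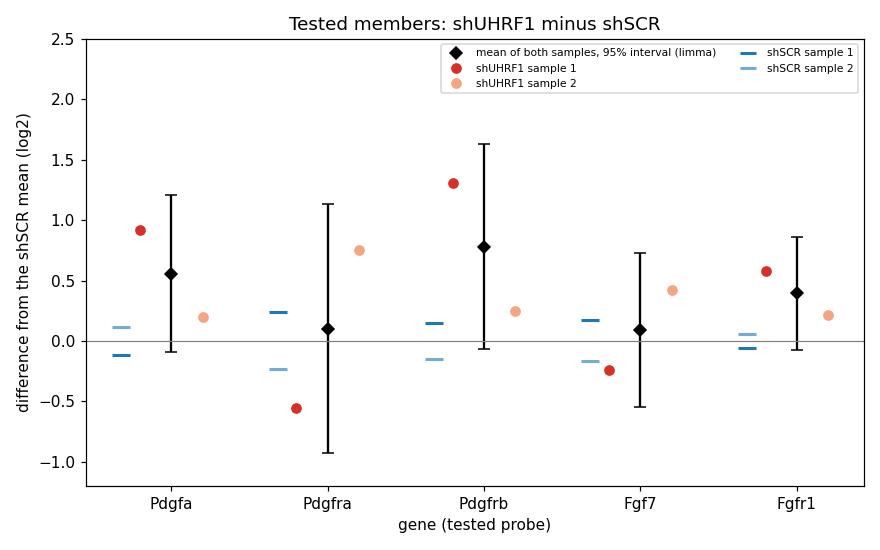
Difference from the shSCR mean (log2, vertical axis) for the 5 tested genes (horizontal axis), with the mean of both shUHRF1 samples and its 95% interval from limma as diamonds, each shUHRF1 sample as a circle and each shSCR sample as a short bar. All 5 intervals cross 0, shUHRF1 sample 1 is above sample 2 for Pdgfa, Pdgfrb and Fgfr1, and the order is turned for Pdgfra and Fgf7.

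The shUHRF1 samples differed from each other by more than the mean difference between the groups in 4 of the 5 tested genes. The gap between them was 0.72 for Pdgfa, 1.06 for Pdgfrb, 1.31 for Pdgfra and 0.66 for Fgf7. For Fgfr1 it was 0.37, just under its mean difference. The share of all tested probes with such a gap was not computed, so the count does not set the members apart. Pdgfa, Pdgfrb and Fgfr1 were higher in shUHRF1 sample 1, and Pdgfra and Fgf7 in sample 2. Pdgfa and its receptor gene Pdgfra thus stood highest in different shUHRF1 samples.

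**Figure D3:**
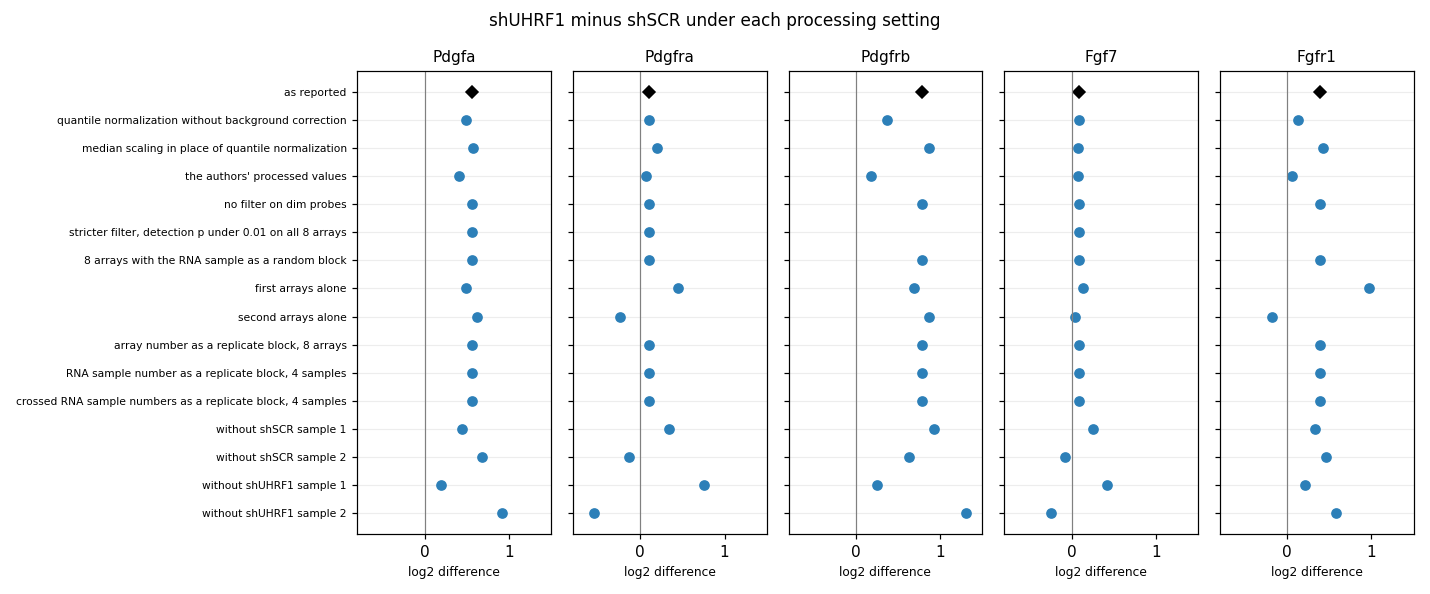
Difference between shUHRF1 and shSCR (log2, horizontal axis) for the 5 tested genes, one panel each, as reported (diamond) and under each other processing setting (points, named on the vertical axis; no point where the filter removed the probe). Pdgfa and Pdgfrb stay above 0 in every setting drawn, while Pdgfra, Fgf7 and Fgfr1 cross it. Settings that change only the filter or a block cannot move the estimate.

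Among the members without a tested probe, Pdgfrl, Fgfr2 and Pdgfb had a probe detected on shUHRF1 arrays alone, on 2, 3 and 1 of them. Pdgfrl encodes a protein that resembles the ligand-binding part of a PDGF receptor but has no kinase. Its brighter probe gave 4.61 and 4.47 in shSCR sample 1, 4.38 and 4.45 in shSCR sample 2, 5.19 and 4.70 in shUHRF1 sample 1, and 5.79 and 4.66 in shUHRF1 sample 2. It was detected on 2 arrays, the first arrays of the shUHRF1 samples, and on 0 shSCR arrays, so that shSCR gives only a bound. No fold is given, because the second arrays of both shUHRF1 samples did not detect it either, and with no filter on dim probes its limma adjusted p over 25669 probes was 0.354. The other Pdgfrl probe was not detected on any array and lay between 4.27 and 4.49.

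Fgfr2, the receptor for FGF7 in its epithelial form, has 3 probes. The brightest gave 4.50 and 4.56 in shSCR sample 1, 4.44 and 4.38 in shSCR sample 2, 4.85 and 4.91 in shUHRF1 sample 1, and 4.66 and 4.84 in shUHRF1 sample 2. It was detected on 3 of the shUHRF1 arrays and on 0 shSCR arrays. Its shUHRF1 mean of 4.81 lay within the range of the lowest detected signals of the shSCR arrays, 4.81 to 4.89, so no fold is given. With no filter its limma adjusted p was 0.394. The other Fgfr2 probes were not detected on any array and had differences of 0.01 and 0.02 there. In these Pdgfrl and Fgfr2 probes every shUHRF1 array was above every shSCR array, which makes 2 of the 10 untested member probes, where 1.51% of the 14789 untested probes of the array did so. That share counts this direction alone, the one these probes had. Both probes were near background, and whether the members differ from other untested probes was not tested.

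Pdgfb, the B chain and main PDGF receptor beta ligand, was detected by 1 probe on 1 of 8 arrays, the second array of shUHRF1 sample 1, with signals of 4.34 to 4.98, and on none by the other, with 4.30 to 4.71. Pdgfc, a ligand that needs proteolytic activation, was not detected on any array (4.36 to 4.73), nor was Fgf2, the heparin-binding growth factor (4.26 to 4.63). These probes do not show whether a low level of the transcript was present, since a signal at background gives only an upper limit. Their differences with no filter lay between -0.05 for a Pdgfb probe and 0.09 for Fgf2.

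The genes with the most similar profile over the 8 arrays, which are 2 arrays of each of 4 RNA samples, were named for the 3 members with the largest difference. For Pdgfrb these were Brwd1 (Pearson r = 0.974), Nfat5 (r = 0.972) and Tgoln1 (r = 0.958). For Pdgfa they were Tbc1d2 (r = 0.984), Fam3a (r = 0.977) and Fabp3 (r = 0.976). For Fgfr1 they were Mef2b (r = 0.948), Exoc7 (r = 0.948) and Ino80b (r = 0.932). Such values are a description of 4 samples, and 50 probes for Pdgfrb, 82 for Pdgfa and 7 for Fgfr1 reached an r above 0.9.

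Around the members, 92 further genes of PDGF and FGF signalling were examined in 5 lists, of which 79 had a probe and 39 were tested, each on its brightest tested probe. Of these 39, 26 were higher in shUHRF1 and 13 lower, with a median log2 difference of 0.08, where the median of all 7502 tested genes was -0.01. By limma, 0 of the 39 passed the adjusted threshold (0% of all genes), 7 were higher at an unadjusted p under 0.05 (7.90% of all genes), and 0 were lower (6.62% of all genes). In 7 of the 39 the arrays of the groups did not overlap, 5 higher and 2 lower, against 16.6% of all genes.

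Among the other ligands, 1 of 17 genes with a probe was tested and 11, Pdgfd among them, were not detected on any array. That gene was Fgf10, a mesenchymal ligand of FGF receptor 2, as Fgf7 is. Fgf10 stood at 5.41 and 5.04 in the shSCR samples and at 5.95 and 5.92 in the shUHRF1 samples, a difference of 0.71 (SE 0.19, limma adjusted p = 0.287), with 0.80 on its other tested probe. The difference was 0.27 with quantile normalization and no background correction, and 0.12 in the authors' processed values. Both shUHRF1 samples were higher than both controls in their means, although single arrays overlapped. On the linear scale the arrays of shUHRF1 sample 2 lay far apart, at 36.4 and 101.3. Those of shUHRF1 sample 1 gave 56.3 and 67.8, and the shSCR arrays 29.0 to 45.8. The log2 signal of shSCR sample 2 was near the lowest detected signal of its arrays, 4.83 and 4.87.

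Of the other receptors and co-receptors, 9 of 13 were tested, 8 higher and 1 lower, with 2 at an unadjusted p under 0.05. Fgfrl1, an FGF receptor without a kinase domain, stood at 6.28 and 6.20 in shSCR and at 7.44 and 6.59 in shUHRF1 (difference 0.77, SE 0.29, limma adjusted p = 0.321). Sdc1, a heparan sulfate proteoglycan at the cell surface that binds FGFs, stood at 6.96 and 7.11 against 8.05 and 7.35, with every shUHRF1 array above every shSCR array (difference 0.66, SE 0.26, limma adjusted p = 0.328). The other tested Sdc1 probe had a smaller difference, 0.32. In the authors' processed values Fgfrl1 differed by 0.21 and Sdc1 by 0.26, and without shUHRF1 sample 1 by 0.35 and 0.31. Both genes were higher in shUHRF1 sample 1 than in sample 2, as were Pdgfa and Pdgfrb, and the median of the list was 0.64 in sample 1 and -0.04 in sample 2. The brightest gene, Hspg2, which encodes the matrix proteoglycan perlecan, had a difference of 0.21 (SE 0.30), which was -0.23 without shUHRF1 sample 1.

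Of the genes that process or release the ligands, 7 of 11 with a probe were tested, 5 higher and 2 lower, with 2 at an unadjusted p under 0.05. Fgfbp3, a secreted protein that binds FGFs, had the largest difference of the 39 genes. It stood at 6.52 and 6.48 in shSCR and at 7.35 and 7.47 in shUHRF1, so that both shUHRF1 samples were higher by a like amount (difference 0.91, SE 0.16, 1.88-fold, limma adjusted p = 0.287). The size varied with the arrays used, at 1.38 from the first arrays and 0.44 from the second, and at 0.30 in the authors' processed values. Hs6st1, which adds sulfate groups to heparan sulfate, stood at 7.12 and 7.25 against 7.79 and 7.50 (difference 0.46, SE 0.18, limma adjusted p = 0.333), and differed by 0.18 in the authors' processed values. Ext1, which helps build the heparan sulfate chain and was the brightest of the list, had a difference of 0.10 (SE 0.27).

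Downstream of the receptors, 15 of 22 adaptor and relay genes with a probe were tested, 9 higher and 6 lower, with a median difference of 0.05. Pik3r2, a regulatory subunit of PI3-kinase, stood at 7.10 and 6.60 in shSCR and at 7.66 and 7.32 in shUHRF1 (difference 0.64, SE 0.23, limma adjusted p = 0.315), with 0.57 on its other tested probe. It differed by 0.22 in the authors' processed values and by 0.39 without shSCR sample 2. Map2k2, a MAP kinase kinase and the brightest of the list, differed by -0.01 (SE 0.16). Of the feedback inhibitors and ETS factors, 7 of 16 with a probe were tested, 3 higher and 4 lower, while the feedback inhibitors Spry1 and Spry2 were not detected on any array. Dusp6, a phosphatase that removes activating phosphates from ERK and is itself an ERK target, stood at 10.28 and 10.61 against 10.98 and 11.20, with every shUHRF1 array above every shSCR array (difference 0.65, SE 0.19, 1.57-fold, limma adjusted p = 0.290), and its other tested probes gave 0.96 and 0.39. Errfi1, a feedback inhibitor of the EGF receptor, stood at 11.57 and 11.09 against 11.05 and 10.57 (difference -0.52, SE 0.25, limma adjusted p = 0.379), and by -0.28 without shSCR sample 1 or without shUHRF1 sample 2.

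**Figure D4:**
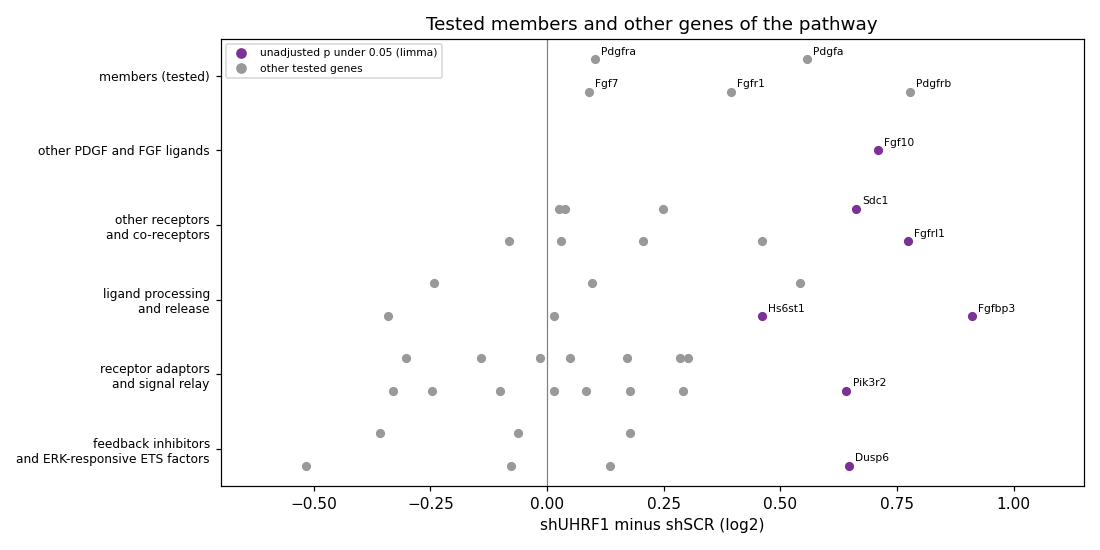
Difference between shUHRF1 and shSCR (log2, horizontal axis) of the 5 tested members and of the 39 tested genes of 5 pathway lists (rows, with points spread within a row for legibility), in purple where the unadjusted limma p was under 0.05. The 7 purple points all lie to the right of 0 and none is a member, and 0 of these genes passed the adjusted threshold.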

How the data were processed

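Expression was measured on 8 Illumina bead arrays, 2 for each of 4 RNA samples. The authors deposited raw probe signal (intensity) with a detection p-value for each array, and a table of processed values, read here as log2 although the labels give no log base. GenomeStudio 2011.1 and lumi are named, per the submitters' processing notes. In the columns of second detection values 1 probe exceeds the range of a p-value. These columns were otherwise used as deposited. Of 25671 probes, 2 with a missing or out-of-range value were left out. Signals were background-corrected and quantile-normalized with neqc (offset 16) in limma 3.58.1 (R 4.3.3), the 2 arrays of an RNA were averaged, and shUHRF1 was compared with shSCR by limma with Benjamini-Hochberg adjustment over 10880 probes, after tests on simulated data. Probe names came from the platform annotation, which gave 1 symbol for 23950 probes and none for 1719. The number of RNA samples, 2 per group, limits the precision.

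The members and the pathway and marker lists were chosen with earlier results of these data known. Named were all members, Uhrf1, list genes with an unadjusted p under 0.05 (at most 6 a list), the brightest tested gene of each list, and the 3 most similar genes of 3 members; marker genes are named beside the results they accompany. First and second arrays deviated together across samples (correlation of deviations 0.122 to 0.545), and averaging the arrays of an RNA balances this.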

Additional observations from a re-analysis of the deposited data

How the results depend on the processing

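The number of probes past the adjusted threshold was 0 as reported, 3 with the RNA sample as a random block, 1 from the second arrays alone, 2 with the array number as a replicate block, 1 with the RNA sample number as a replicate block, 2 with those numbers crossed (a replicate block chosen after seeing the data), and 0 to 0 without each sample in turn; no member passed in any of them. The probes at an unadjusted p under 0.05 numbered 1576 as reported, 2723 with no filter on dim probes, 930 from the second arrays alone, and 732 to 2074 without each sample in turn, the lowest without shSCR sample 2, with 914 without shUHRF1 sample 1. Pdgfa kept its direction in 15 of 15 alternatives (0.20 to 0.92) and Pdgfrb in 14 of 14 (0.18 to 1.31). The blocks, and the filters that kept the probe, left these estimates at 0.56 and 0.78. In this balanced design they could not change them, so those alternatives say nothing on direction. From the second arrays alone the sign turned for Pdgfra (-0.24) and Fgfr1 (-0.18), and from the first arrays alone for Ext1 (-0.063) and Map2k2 (0.045). Without each sample in turn the range crossed 0 for Pdgfra (-0.55 to 0.76, with -0.13 without shSCR sample 2), Fgf7 (-0.24 to 0.42, with -0.08 without shSCR sample 2), Hspg2 (-0.23 to 0.64), Ext1 (-0.30 to 0.49) and Map2k2 (-0.065 to 0.037). The cause was not tested. The labels do not say whether equal RNA sample numbers pair the groups. The correlation of deviations was -0.15, and a single value from 2 samples per group cannot decide it. No replicate block brought a member past the adjusted threshold. The unadjusted limma p of Pdgfrb was 0.0144 with the RNA sample number as a replicate block and 0.0364 with crossed numbers, where that of Pdgfa was 0.0264. With a detection p under 0.01, 4 member probes remained in place of 5, and signals near background limit Fgfr1, Pdgfrl and Fgfr2.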
